A study of Mus musculus with 24 samples.

Results

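The Toll-like receptor genes Tlr1, Tlr2, Tlr3, Tlr4, Tlr6, Tlr7, Tlr8 and Tlr9 were examined together with Unc93b1 and Myd88. These 10 genes were picked by symbol, and all were found among the 21669 genes of the read-count table. RNA sequencing was done on 24 libraries from 2 mouse cell lines. RAW-Blue cells are RAW 264.7 macrophages that carry a secreted alkaline phosphatase reporter for NF-kB and AP-1, and K-Luc cells are KR158B glioma cells of C57BL/6 origin that express luciferase. Each line had 5 groups: SWNT/CpG, which is single-walled carbon nanotubes dispersed in the oligonucleotide CpG-28; CpG+SWNT/LP, which is CpG-28 and lipid-PEG-coated nanotubes added together but not joined; CpG, which is free CpG-28; SWNT/LP, which is nanotubes in lipid-PEG; and untreated cells given sterile water. Every ingredient was given at 10 µg/mL, and SWNT/CpG held no lipid-PEG. After 24 h of adhesion in culture-insert chambers, RAW-Blue cells were treated for 47 to 50 h and K-Luc cells for 17 to 19 h. The insert alone was seeded with RAW-Blue cells, whereas K-Luc cells were seeded both in it and around it. RAW-Blue had 2 libraries in every group, while K-Luc had 2 untreated libraries and 3 in each treated group. No group was given an oligonucleotide that lacks CpG, so an effect of CpG and one of DNA in general cannot be told apart. Each line is a single cultured line, and the labels do not say that replicates came from separate cultures, and p-values rest on a spread between libraries that may be technical.

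Toll-like receptors are membrane proteins that recognise microbial molecules and start inflammatory gene expression. Tlr2, alone or paired with Tlr1 or Tlr6, binds bacterial lipoproteins at the cell surface, and Tlr4 binds lipopolysaccharide with its co-receptor Ly96. Tlr3 recognises double-stranded RNA, Tlr7 and Tlr8 recognise single-stranded RNA and its breakdown products, and Tlr9 recognises DNA rich in unmethylated CpG, all inside endosomes. Unc93b1 escorts the nucleic acid receptors from the endoplasmic reticulum to endosomes, where Tlr9 is cleaved by proteases before it signals. Myd88 is the adaptor that links these receptors, except Tlr3, to the kinases upstream of NF-kB. Macrophages are a usual site of Tlr9 expression in mice.

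Library totals were 13.3 to 24.1 M counts. In RAW-Blue cells all 12 macrophage markers reached at least 1 CPM (read counts scaled for depth, with TMM factors within a line) in every library, and their sum was 5789 to 6606 CPM. In K-Luc libraries the same markers summed to 4.04 to 6.77 CPM, with 0 to 1 counts of Adgre1 and 0 to 3 of Spi1. K-Luc cells had the neural stem genes Sox2 (89.7 to 141 CPM) and Nes (161 to 239 CPM), but Olig1 and Olig2 had no count in any K-Luc library, Sox10 had 0 to 1 and Gfap had 1 to 12. The 2 untreated RAW-Blue libraries stood apart from each other. They differed by more than 1.5-fold in 801 of 8777 genes at 10 CPM or more (9.13%), against 0.0325% to 0.942% for the 17 other pairs of replicates. Most RAW-Blue values against untreated, and some counts, are therefore also given without untreated replicate 1. The labels do not say which of the 2 libraries is typical. Leaving out replicate 2 instead also changed the calls in several gene lists. A set of 3 K-Luc libraries, replicate 1 of SWNT/CpG, of CpG+SWNT/LP and of untreated, came from a first sequencing run and all others from a second, so the K-Luc model had a run term.

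Both lines carried transcripts of Tlr1, Tlr2, Tlr3, Tlr4, Tlr6, Unc93b1 and Myd88, whereas Tlr7 and Tlr9 were found at more than trace levels in RAW-Blue cells alone and Tlr8 in neither. Levels are compared between genes in RPKM, the length-scaled unit that the authors deposited to 1 decimal, over all 5 groups. In RAW-Blue cells (10 libraries) Unc93b1 was highest, at a median of 56.7 RPKM and a range of 52.4 to 64.4. Tlr2 (29.5, 20.9 to 40.1), Myd88 (28.2, 26.7 to 37.9) and Tlr7 (26.2, 20.2 to 31.6) followed with ranges that overlapped. Tlr4 had a median of 18.3 RPKM, and its range of 11.9 to 22.2 reached into those of Tlr2 and Tlr7. Tlr6 (3.5, 3.3 to 3.8) and Tlr9 (3.15, 2.3 to 3.9) overlapped with each other, as did Tlr1 (1.15, 0.7 to 1.5) and Tlr3 (0.7, 0.5 to 1.1). Tlr8 had 1 to 6 counts per library, or 0 to 0.1 RPKM.

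In K-Luc cells (14 libraries) Tlr4 had the highest median, 13.75 RPKM with a range of 10.2 to 16.8. It overlapped with Tlr2 (9.8, 6.5 to 24.7), and Tlr2 overlapped with Myd88 (8.65, 7.7 to 10.7). Tlr3 stood alone at 2.6 RPKM (2.2 to 3.5), above Tlr1 (1.4, 1.1 to 1.9) and Unc93b1 (1.4, 1.2 to 1.7), which overlapped, and Tlr6 (0.45, 0.2 to 0.7). Tlr7 had 0 to 9 counts per library, 54 over all 14. Tlr8 had no count in any K-Luc library. Tlr9 had 4 counts in all 14 libraries, 3 of them in SWNT/LP libraries and 1 in an untreated one. It had no count in the 9 K-Luc libraries given oligonucleotide, where a floor of 3 counts per library corresponds to 0.124 to 0.22 CPM. The order of Tlr3 and Unc93b1 was thus opposite in the 2 lines. Among receptors outside the 10, Tlr13, which in mice recognises bacterial ribosomal RNA, had 184 to 218.5 CPM in RAW-Blue and 0 to 3 counts in K-Luc, and Tlr5, the flagellin receptor, had 0 to 1 counts in RAW-Blue and 75 to 188 in K-Luc.

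**Figure D1:**
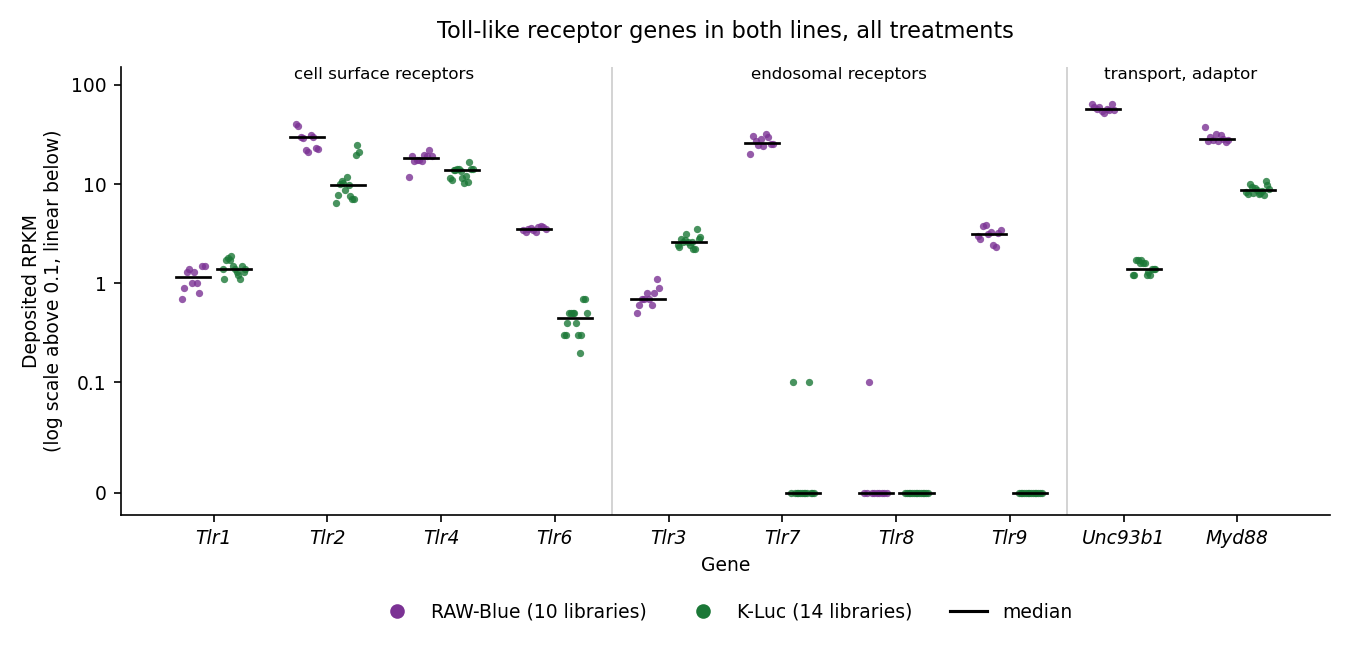
Deposited RPKM of the 10 genes on an axis that is logarithmic above 0.1 and linear below, with a point per library, RAW-Blue cells (10 libraries) left of K-Luc cells (14 libraries) for each gene and a line at the median. Unc93b1 lies at 52.4 to 64.4 RPKM in RAW-Blue cells and 1.2 to 1.7 in K-Luc cells, and Tlr3 lies lower in RAW-Blue cells.

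Untreated RAW-Blue cells had more of 7 genes and less of 2 than untreated K-Luc cells (n = 2 each), out of 9 tested. In that comparison 77.9% of all 13350 tested genes passed, 37% higher and 40.9% lower, so the count itself does not set these genes apart. Line cannot be told apart here from treatment time and plating. Unc93b1 had 64.4 and 60.1 RPKM in untreated RAW-Blue libraries, against 1.2 and 1.2 RPKM in untreated K-Luc libraries, a 58.4-fold difference (log2 fold change 5.87 ± 0.09 SE, adjusted p = 4.49e-24). Each p comes from edgeR's quasi-likelihood test, adjusted by Benjamini-Hochberg across every gene tested, and a gene is called where the adjusted p is under 0.05. Tlr2 had 40.1 and 38.2 RPKM in untreated RAW-Blue libraries, against 6.5 and 7.7 in untreated K-Luc libraries (2.48 ± 0.09, adjusted p = 2.15e-17). Myd88 was higher by 2.20 ± 0.13 and Tlr6 by 3.76 ± 0.21 on the log2 scale. Tlr4 was higher by 0.68 ± 0.15, and the 2 unlike untreated RAW-Blue libraries decided its size, at 0.94 without replicate 1 and 0.26 without replicate 2. It stayed called under all 10 alternative settings, which used another tool, scaling or filter, other model terms, or 1 library less. Tlr7 and Tlr9 were nearly missing in K-Luc cells. Tlr7 had 5951 counts in the 2 untreated RAW-Blue libraries and 9 in the 2 untreated K-Luc libraries, a depth-adjusted ratio of 659 with an exact 95% interval of 347 to 1440 for counting error only. Tlr9 had 593 counts in untreated RAW-Blue and 1 in untreated K-Luc, a ratio of 591 with an interval of 106 to 23400. Leaving out K-Luc untreated replicate 2, which holds that 1 count, leaves no Tlr9 count in untreated K-Luc, so that fit cannot size the difference. Tlr3 had 0.5 and 0.6 RPKM in untreated RAW-Blue libraries, against 2.4 and 2.3 in untreated K-Luc libraries (-1.90 ± 0.14, adjusted p = 1.55e-11). Tlr1 was also lower in RAW-Blue (-0.40 ± 0.17, adjusted p = 0.0393), a call kept under 5 of 10 alternative settings with adjusted p from 0.0131 to 0.173. It was lost without RAW-Blue untreated replicate 1 (adjusted p = 0.173) and without either K-Luc untreated library (0.0607 without replicate 1 and 0.128 without replicate 2). Without RAW-Blue untreated replicate 1 the values were 5.78 for Unc93b1, 2.41 for Tlr2, 1.90 for Myd88, 3.72 for Tlr6 and -1.87 for Tlr3, all called.

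Tlr2 was higher with every oligonucleotide treatment in K-Luc cells and lower with every treatment in RAW-Blue cells. In K-Luc cells Tlr2 had 82.7, 107 and 91.7 CPM in SWNT/CpG libraries. It had 36.4, 50.7 and 42.0 CPM in CpG+SWNT/LP libraries, 40.8, 45.6 and 43.7 CPM in CpG libraries, 31.2, 29.7 and 30.1 CPM in SWNT/LP libraries, and 27.5 and 32.6 CPM in untreated libraries. All 3 SWNT/CpG libraries were above all 11 others, and the 6 libraries given CpG with or without SWNT/LP were above the 5 given no oligonucleotide. SWNT/CpG against untreated gave a log2 fold change of 1.59 ± 0.09, or 3.02-fold (adjusted p = 1.37e-09), and the call held under all 12 alternative settings, from 1.54 to 1.66. Within the second run alone the value was 1.61. CpG against untreated gave 0.39 ± 0.09 (adjusted p = 0.00386) and CpG+SWNT/LP against untreated 0.47 ± 0.09 (adjusted p = 0.00087). Each of these calls held under 11 of 12 settings, with adjusted p up to 0.132 for CpG and 0.051 for CpG+SWNT/LP, and both were lost on leaving out untreated replicate 2. SWNT/LP against untreated gave -0.12 ± 0.09 (adjusted p = 0.964). The 4 treatments of a line share its untreated libraries.

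Between treatments, K-Luc cells had 2.3-fold more Tlr2 with SWNT/CpG than with CpG (1.20 ± 0.07, adjusted p = 3.22e-08). They also had more with SWNT/CpG than with CpG+SWNT/LP (1.12 ± 0.07, adjusted p = 3.65e-08), a pair that received the same doses of oligonucleotide and nanotubes but differs in lipid-PEG and in whether the nanotubes carry the oligonucleotide. Both calls held under all 13 settings. CpG+SWNT/LP and CpG differed in Tlr2 by 0.08 ± 0.08 (adjusted p = 0.959). In K-Luc cells Col1a1, Col1a2, Col3a1 and Pdgfrb were higher than untreated with every oligonucleotide treatment, and Pdgfra was not. Col1a2 and Pdgfrb were also higher with SWNT/CpG than with CpG and than with CpG+SWNT/LP. Col3a1 was called higher against CpG+SWNT/LP (0.35, adjusted p = 0.0415) but not against CpG (0.21, adjusted p = 0.249). Col1a1 was called in neither, at 0.12 against CpG (adjusted p = 0.584) and 0.24 against CpG+SWNT/LP (adjusted p = 0.197). The fibroblast and vascular list summed to 11000 to 11950 CPM in SWNT/CpG, 9249 to 9990 in CpG+SWNT/LP, 9470 to 10520 in CpG, 5761 to 7490 in SWNT/LP and 6064 to 7516 in untreated libraries. Col1a1 was its largest part, at 7612 CPM on average with SWNT/CpG. Against untreated, 4 of its 6 tested genes were higher with SWNT/CpG, where 21.8% of all genes were called higher. Pdgfra was at -0.08 there (adjusted p = 0.278). It was lower with SWNT/CpG than with CpG (-0.18, adjusted p = 0.04) and than with CpG+SWNT/LP (-0.21, adjusted p = 0.0107). The neural stem gene Sox2 averaged 95.8 CPM with SWNT/CpG and 138 CPM untreated (-0.50 ± 0.05, adjusted p = 1.37e-06). It was also lower with SWNT/CpG than with CpG+SWNT/LP (-0.43, adjusted p = 7.3e-06) and than with CpG (-0.43, adjusted p = 1.51e-05). No other tested gene of its list was called with SWNT/CpG against untreated, and Nes was at -0.08 there (adjusted p = 0.444). Nes was higher with SWNT/CpG than with CpG (0.27, adjusted p = 0.0222), as was the scarce Aldh1l1 (2.37, adjusted p = 0.0448). The equally scarce Fabp7 was lower in that comparison (-1.37, adjusted p = 0.00724). The glial and neural stem list summed to 307.1 to 323.4 CPM in SWNT/CpG, 323.5 to 329.8 in CpG+SWNT/LP, 288 to 323.2 in CpG, 355 to 375.9 in SWNT/LP and 347.3 to 384.4 in untreated libraries. Their part in the Tlr2 result was not tested. The macrophage list summed to 4.78 to 5.39 CPM in K-Luc SWNT/CpG libraries, 5.21 to 6.77 in CpG+SWNT/LP, 4.35 to 4.80 in CpG, 4.04 to 4.81 in SWNT/LP and 4.12 to 4.33 in untreated ones. Of its 3 tested genes Lyz2 was higher with SWNT/CpG (0.86 ± 0.20, adjusted p = 0.0028), with CpG+SWNT/LP (1.01 ± 0.20, adjusted p = 0.00111) and with CpG (0.80 ± 0.21, adjusted p = 0.00716), at 2.97, 3.31 and 2.75 CPM against 1.69 CPM untreated. In such bulk RNA fewer cells of a type and less RNA per cell cannot be told apart.

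In RAW-Blue cells Tlr2 had 105.5 and 110 CPM in SWNT/CpG libraries, 105 and 102 CPM in CpG+SWNT/LP libraries, 141 and 138 CPM in CpG libraries, 140.2 and 139 CPM in SWNT/LP libraries, and 183 and 179.8 CPM in untreated libraries. Every treated library was below both untreated ones, and the 4 libraries that held oligonucleotide and nanotubes together were below the 4 that held only one of them. The 2 untreated libraries lay close together for Tlr2. Against untreated the log2 fold change was -0.75 ± 0.06 for SWNT/CpG (adjusted p = 5.13e-05) and -0.81 ± 0.06 for CpG+SWNT/LP (adjusted p = 4.79e-05), and both calls held under all 9 settings. It was -0.38 ± 0.06 for CpG (adjusted p = 0.00558) and -0.38 ± 0.06 for SWNT/LP (adjusted p = 0.0393). The CpG call held under 7 of 9 settings (adjusted p up to 0.207) and was lost without CpG replicate 2 (0.0719). The SWNT/LP call held under 5 of 9 (adjusted p up to 0.701) and was lost without SWNT/LP replicate 1 (0.373) and without replicate 2 (0.578). SWNT/CpG was below CpG by 0.37 ± 0.06 on the log2 scale (log2 fold change -0.37, adjusted p = 0.0367), and that call was lost on leaving out any of the 4 libraries (0.12 to 0.45). SWNT/CpG and CpG+SWNT/LP differed by 0.06 ± 0.06 (adjusted p = 0.772). The Tlr2 values without untreated replicate 1 were -0.74 for SWNT/CpG, -0.80 for CpG+SWNT/LP, -0.37 for CpG and -0.37 for SWNT/LP, all called. Macrophage markers also moved in RAW-Blue cells, in both directions. With SWNT/CpG, Laptm5 (-0.82), Tyrobp (-0.49), Cd68 (-0.41) and Csf1r (-0.32) were lower and Itgam (1.10) and Cd53 (0.96) higher. These are 6 of the 12 markers, where 23.2% of all genes were called. The fall of Cd68 was no longer called without untreated replicate 1 (adjusted p = 0.111). CpG+SWNT/LP lowered 3 and raised 3, with 20.3% of all genes called, and CpG lowered 2 and raised 2, with 10.8% called. Both counts changed without untreated replicate 1. With SWNT/LP the 12 values lay between -0.31 and 0.36. Their median was -0.16, or -0.06 and -0.26 without untreated replicate 1 or 2. The summed markers were at 6055 to 6254 CPM with SWNT/CpG and 6149 to 6606 CPM untreated, and their part in the Tlr2 result was not tested.

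**Figure D2:**
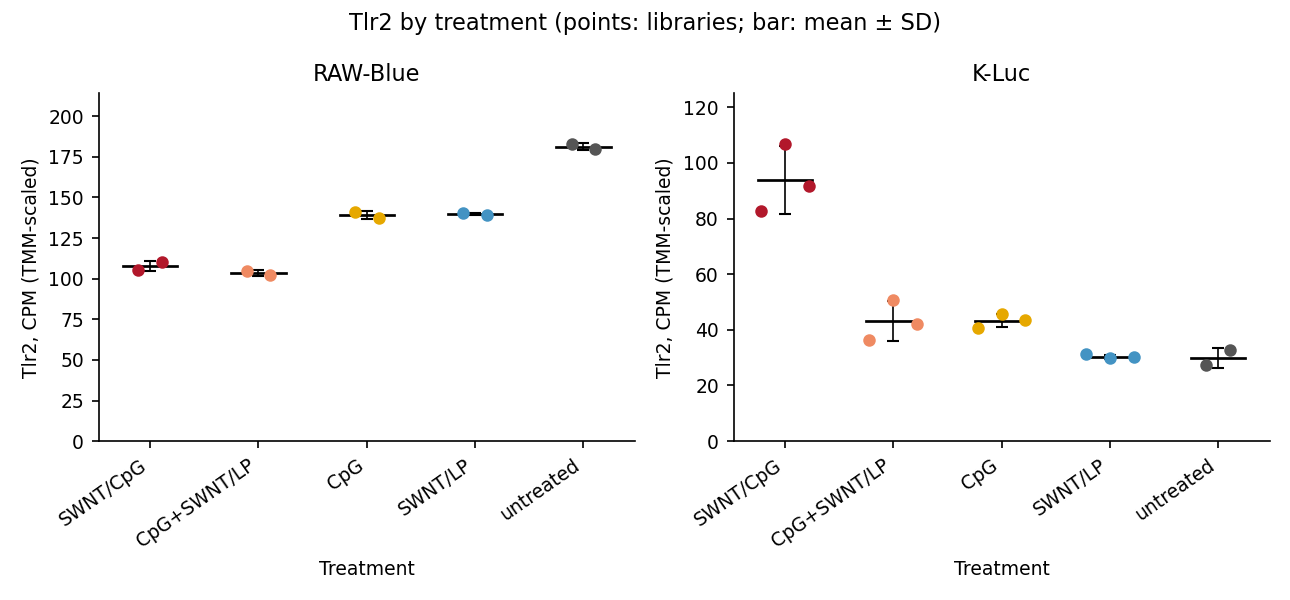
Tlr2 in CPM for each library of the 5 groups, RAW-Blue cells in the left panel and K-Luc cells in the right panel, with a bar at each group's mean and its SD. Group means in RAW-Blue cells are 107.8 CPM with SWNT/CpG and 181 CPM untreated, and in K-Luc cells 93.7 CPM with SWNT/CpG and 30.1 CPM untreated.

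The difference of the lines in Tlr2 was tested directly. The SWNT/CpG response in RAW-Blue minus that in K-Luc was -2.35 ± 0.11 on the log2 scale (adjusted p = 2.96e-12), rank 2 by p of 13350 genes, and it ran from -2.43 to -2.31 over 15 settings, all called. For CpG the difference was -0.79 ± 0.12 (adjusted p = 5.53e-05), also called under all 15. The start of Tlr2 is printed because this gene had the largest response of the 10 in K-Luc cells, and that of Tlr9 because it encodes the CpG DNA receptor. Both are RefSeq stretches of build GRCm38.p6 from 180 bases before to 20 bases from the annotated start onward. The authors' files use build mm9, whose coordinates differ. RefSeq windows of 300 bases were at hand for 7 of the 10 genes. Capitals mark, in Tlr2 (minus strand, chr3:83841589-83841788), matches on either strand to the NF-kB pattern, GGGA and CC with any 4 bases between them, and, in Tlr9 (plus strand, chr9:106222418-106222617), a match to the AP-1 pattern TGANTCA.
Tlr2: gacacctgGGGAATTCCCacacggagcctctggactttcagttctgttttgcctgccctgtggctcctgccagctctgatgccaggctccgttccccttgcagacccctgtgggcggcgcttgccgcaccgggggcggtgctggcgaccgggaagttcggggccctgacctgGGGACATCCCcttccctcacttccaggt
Tlr9: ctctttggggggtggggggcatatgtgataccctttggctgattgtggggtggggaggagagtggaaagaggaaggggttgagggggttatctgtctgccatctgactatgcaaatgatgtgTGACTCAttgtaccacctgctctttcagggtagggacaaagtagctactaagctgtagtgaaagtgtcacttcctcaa
The Tlr2 matches begin at positions -172 and -8 from the start, and each reads as a match on both strands. The Tlr9 match begins at -58. The NF-kB pattern occurs in 20.7% of the 32851 RefSeq windows of 300 bases and the AP-1 pattern in 7.81%. Over its 300 bases Tlr2 holds 11 CG dinucleotides and is 62% G and C, while Tlr9 holds 0 and is 49.7% G and C. The Tlr9 window has no match to the NF-kB pattern, and the Tlr3 window has 3. These matches describe the letters of the windows only.

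Genes were ranked by how closely their group means followed Tlr2 over the 5 K-Luc groups, as the root mean square difference of centred log2 CPM. Among 10988 genes the nearest were Klhl30 (0.062), Adamts12 (0.079) and Dapk2 (0.086).

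Against both untreated libraries Tlr9 itself passed the test with CpG alone in RAW-Blue cells, and it was nearly uncounted in K-Luc cells. In RAW-Blue cells it had 18.03 and 20.0 CPM in SWNT/CpG libraries, 17.8 and 19.8 CPM in CpG+SWNT/LP libraries, 21.8 and 22.4 CPM in CpG libraries, 12.9 and 13.3 CPM in SWNT/LP libraries, and 16.6 and 15.9 CPM in untreated libraries. Every library given oligonucleotide was above, and every SWNT/LP library below, both untreated libraries. With CpG it rose by 0.44 ± 0.10 on the log2 scale (adjusted p = 0.0214). Without untreated replicate 1 the value was 0.47 (adjusted p = 0.0108). Over the 9 settings adjusted p ran from 0.00976 to 0.207, and the call was lost without CpG replicate 1 (0.0988) or replicate 2 (0.13). The values were 0.23 ± 0.10 for SWNT/CpG (adjusted p = 0.132), 0.21 for CpG+SWNT/LP (adjusted p = 0.172) and -0.31 ± 0.10 for SWNT/LP (adjusted p = 0.286). In the same order they were 0.26, 0.24 and -0.29 without untreated replicate 1, and 0.20, 0.18 and -0.34 without replicate 2. CpG+SWNT/LP was above SWNT/LP by 0.52 ± 0.10 (adjusted p = 0.018), a comparison added later whose call was lost without any 1 of the 4 libraries (0.0544 to 0.186). SWNT/CpG and CpG differed by -0.21 ± 0.10 (adjusted p = 0.404). Among 10308 RAW-Blue genes the group means nearest to those of Tlr9 belonged to Bcl3 (0.086), Nadk (0.092) and Ms4a6d (0.098).

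In K-Luc cells with SWNT/CpG no other tested member moved by as much as Tlr2. With CpG, Tlr6 (0.77, not called), Tlr1 (0.58) and Unc93b1 (0.48) had larger values than Tlr2 (0.39). With CpG+SWNT/LP, Tlr6 (0.76) had a larger value than Tlr2 (0.47), and Unc93b1 was level with Tlr2 (0.47). Against untreated, SWNT/CpG raised 5 of the 7 tested members (Tlr2, Tlr3, Tlr4, Tlr6 and Myd88) and lowered none, in a comparison where 43.1% of 12420 genes were called, 21.8% higher and 21.3% lower. CpG raised 5 (Tlr1, Tlr2, Tlr3, Tlr4 and Unc93b1) with 36.2% of genes called, 17.9% higher and 18.4% lower. CpG+SWNT/LP raised 6, all of the 7 but Myd88, with 33.9% called, 16.1% higher and 17.8% lower. SWNT/LP changed none, with 0.129% of genes called (0.0886% higher and 0.0403% lower), no member at an unadjusted p under 0.05, and no member called by DESeq2. Tlr7, Tlr8 and Tlr9 were below the filter. Leaving out untreated replicate 2, which leaves 1 untreated library, lowered the CpG and CpG+SWNT/LP counts. On leaving out untreated replicate 1 the CpG+SWNT/LP count was lower too, and without its own replicate 1 or 2 it was 2. The number called over all genes also moved over the alternatives, by the ranges given at the end.

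Tlr4 had 94.4, 82.5 and 82.6 CPM in K-Luc SWNT/CpG libraries, 79.4, 77.7 and 67.1 in CpG+SWNT/LP, 77.8, 79.2 and 81.9 in CpG, 57.5, 69.2 and 59.9 in SWNT/LP, and 66.7 and 62.5 in untreated libraries. All 9 libraries given oligonucleotide were above both untreated ones. The change was 0.44 ± 0.07 with SWNT/CpG (adjusted p = 0.000204) and 0.37 ± 0.08 with CpG (adjusted p = 0.00191), each called under all 12 settings. With CpG+SWNT/LP it was 0.23 ± 0.07 (adjusted p = 0.0245), called under 6 of 12 (adjusted p up to 0.2) and lost without either untreated library (0.166 and 0.127) or without its own replicate 1 (0.0758) or 2 (0.107). Tlr6 was scarce in K-Luc cells, at 2.73, 2.74 and 1.90 CPM in SWNT/CpG libraries and 1.05 and 1.15 CPM in untreated ones. It rose by 1.14 ± 0.28 with SWNT/CpG (adjusted p = 0.00326), a call lost in the second run alone (1.01, adjusted p = 0.056) and kept under the 11 other settings. With CpG+SWNT/LP Tlr6 rose by 0.76 ± 0.28 (adjusted p = 0.0476, called under 4 of 12, 0.0154 to 0.287). It was lost without either untreated library (0.235 and 0.163) and without CpG+SWNT/LP replicate 1 (0.135) or 2 (0.118). With CpG the value was 0.77 ± 0.29 (adjusted p = 0.0502), and with replicate number as a block it was 0.93 (adjusted p = 0.0109). Tlr1 shares 15.4% of the 50-base windows of its transcripts with other genes, 454 of them with Tlr6. The effect of these shared windows on the counts of the 2 genes was not tested. Tlr1 had 7.12, 7.65 and 7.38 CPM in K-Luc CpG libraries and 5.85 and 4.95 CPM in untreated ones. It rose by 0.58 ± 0.12 with CpG (adjusted p = 0.00206, 0.0685 without untreated replicate 2 and called under the 11 other settings). With CpG+SWNT/LP it rose by 0.36 ± 0.12 (adjusted p = 0.0258, called under 4 of 12, 0.0181 to 0.198). That call was lost without either untreated library (0.111 and 0.198) and without CpG+SWNT/LP replicate 1 (0.142) or 2 (0.0521). With SWNT/CpG the Tlr1 value was 0.19 ± 0.12 (adjusted p = 0.22).

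Among the intracellular members of K-Luc cells, Tlr3 had 22.7, 18.5 and 19.2 CPM in SWNT/CpG libraries and 15.96 and 14.8 CPM in untreated ones. The groups did not overlap. Tlr3 rose by 0.41 ± 0.08 with SWNT/CpG (adjusted p = 0.000687, called under all 12 settings) and by 0.30 ± 0.08 with CpG (adjusted p = 0.0116, called under 7 of 12, 0.0127 to 0.21). The CpG call was lost without either untreated library (0.0774 and 0.0515). With CpG+SWNT/LP the rise was 0.22 ± 0.08 (adjusted p = 0.0408), called under 3 of 12 (0.025 to 0.368) and lost without any 1 of the 5 libraries compared (0.0549 to 0.305). Unc93b1 had 5.76, 5.82 and 6.03 CPM in SWNT/CpG libraries, 7.15, 6.87 and 6.86 in CpG+SWNT/LP, 7.08, 6.996 and 6.78 in CpG, 4.96, 5.498 and 5.21 in SWNT/LP, and 5.17 and 4.91 in untreated libraries. Its highest 6 values were those of CpG and CpG+SWNT/LP. It rose by 0.48 ± 0.11 with CpG (adjusted p = 0.00402) and 0.47 ± 0.11 with CpG+SWNT/LP (adjusted p = 0.00362), and both calls were lost without untreated replicate 2 (0.147 and 0.119). With SWNT/CpG it was 0.23 ± 0.11 (adjusted p = 0.138). Myd88 had 29.8, 28.2 and 25.6 CPM in SWNT/CpG libraries and 23.8 and 22.3 CPM in untreated ones, a rise of 0.29 ± 0.08 (adjusted p = 0.0104, 0.000145 to 0.0968 over the settings). The Myd88 call was lost without untreated replicate 1 (0.0614) or 2 (0.0956). With CpG the value was 0.21 ± 0.09 (adjusted p = 0.0704), and with replicate number as a block 0.22 (adjusted p = 0.0163).

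Few members differed between the K-Luc treatments beside Tlr2. In SWNT/CpG against CpG, where 14.9% of genes were called (7.29% higher and 7.58% lower), Tlr1 was lower (-0.38 ± 0.10, adjusted p = 0.0188). That call held under 6 of 13 settings (0.0143 to 0.111) and was lost without CpG replicate 2 (0.0606) and without SWNT/CpG replicate 1 (0.0556) or 2 (0.0791). In SWNT/CpG against CpG+SWNT/LP, with 17.7% called (8.54% higher and 9.12% lower), Tlr4 was higher (0.21 ± 0.06, adjusted p = 0.0331, 0.000337 to 0.189 over 13 settings, called under 6). It was lost without any 1 of the 3 SWNT/CpG libraries (0.0796 to 0.158) and without CpG+SWNT/LP replicate 1 (0.128) or 3 (0.16). With replicate number as a block Tlr3 (adjusted p = 0.0269) and Myd88 (adjusted p = 0.00902) were also called, 4 members in all. CpG+SWNT/LP against CpG, with 0.266% called, changed no member by edgeR or DESeq2, and the lowest unadjusted p was 0.0508. With the block it lowered Tlr4 (-0.18, adjusted p = 0.0479). In CpG+SWNT/LP against SWNT/LP, a comparison added later with 30.8% called, Tlr1, Tlr2, Tlr4 and Unc93b1 were higher, Tlr2 by 0.60 ± 0.08 (adjusted p = 4.27e-05) and Unc93b1 by 0.40 ± 0.10 (adjusted p = 0.0054).

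In RAW-Blue cells Tlr1, Tlr2, Tlr3 and Tlr9 passed the test in some treatment against both untreated libraries, and the counts moved with single libraries. SWNT/CpG changed 3 of the 9 tested members, raising Tlr1 and Tlr3 and lowering Tlr2, with 23.2% of 11514 genes called, 12.8% higher and 10.4% lower. CpG changed 3, raising Tlr1 and Tlr9 and lowering Tlr2, with 10.8% called, 5.18% higher and 5.6% lower. CpG+SWNT/LP raised Tlr1 and lowered Tlr2, with 20.3% called, 10.1% in each direction. SWNT/LP lowered Tlr2, with 0.478% called and 0.0434% lower. These counts changed when 1 library was left out, which leaves a single library in its group. The number called over all genes moved widely over the alternatives too, by the ranges given at the end. Such changes in the counts therefore do not set the members apart. Tlr1 had 7.17 and 7.60 CPM in SWNT/CpG libraries, 4.97 and 6.73 in CpG+SWNT/LP, 6.31 and 6.65 in CpG, 4.58 and 4.00 in SWNT/LP, and 3.25 and 4.11 in untreated libraries. All 6 libraries given oligonucleotide were above the 4 that were not. Tlr1 rose by 1.00 ± 0.19 with SWNT/CpG (adjusted p = 0.00409, called under all 9 settings). It rose by 0.81 ± 0.19 with CpG (adjusted p = 0.0244, up to 0.153), a call lost without CpG replicate 1 (0.0999) or 2 (0.135) and kept without untreated replicate 1 (0.66, adjusted p = 0.0425). With CpG+SWNT/LP it rose by 0.67 ± 0.19 (adjusted p = 0.0351), and without untreated replicate 1 by 0.52 (adjusted p = 0.0823) and without CpG+SWNT/LP replicate 2 by 0.42 (adjusted p = 0.242). Tlr3 had 7.86 and 6.40 CPM in SWNT/CpG libraries, 5.76 and 5.37 in CpG+SWNT/LP, 5.25 and 4.87 in CpG, 4.53 and 6.08 in SWNT/LP, and 3.48 and 4.00 in untreated libraries. It rose by 0.92 ± 0.19 with SWNT/CpG (adjusted p = 0.00629, up to 0.0627), and without SWNT/CpG replicate 1 the value was 0.77 (adjusted p = 0.0627). Without untreated replicate 1 or 2 the SWNT/CpG values were 0.85 or 1.18 for Tlr1, 0.83 or 1.03 for Tlr3 and -0.74 or -0.76 for Tlr2. With CpG+SWNT/LP the Tlr3 value was 0.57 ± 0.19 (adjusted p = 0.0645), or 0.47 and 0.67 without untreated replicate 1 or 2.

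**Figure D3:**
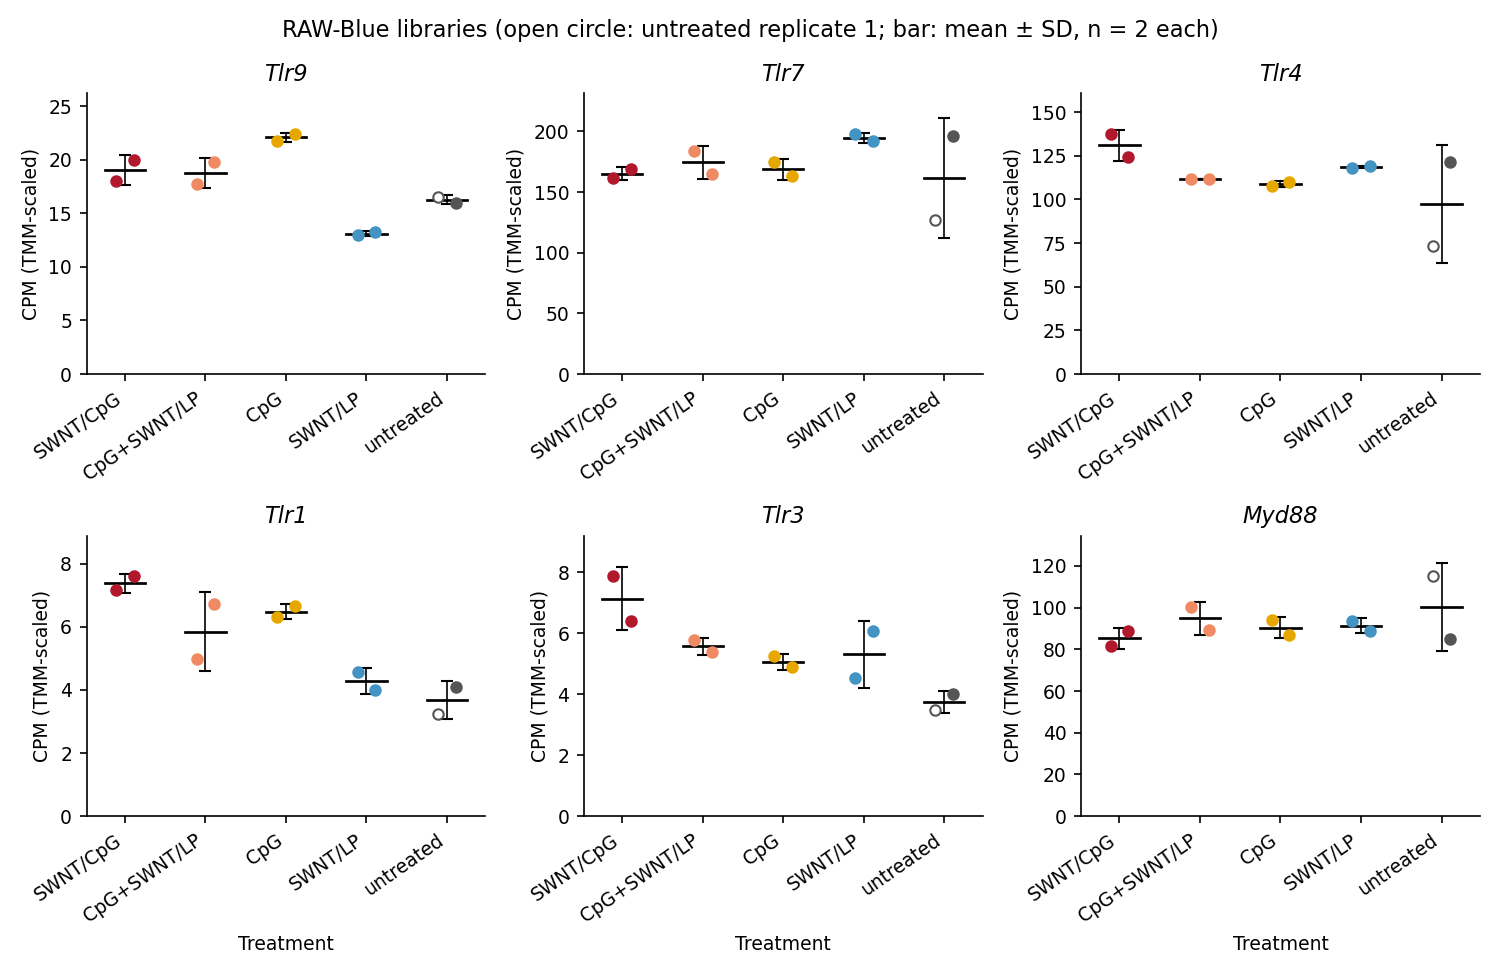
CPM of each RAW-Blue library for Tlr9, Tlr7, Tlr4, Tlr1, Tlr3 and Myd88, with a panel and an axis from 0 for each gene and a bar at the mean ± SD, in the order SWNT/CpG, CpG+SWNT/LP, CpG, SWNT/LP and untreated. The open circle is untreated replicate 1, which lies at 73.3 CPM for Tlr4 and 127 CPM for Tlr7, below every other RAW-Blue library.

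Tlr4, Tlr7 and Myd88 were the members on which the 2 untreated RAW-Blue libraries disagreed. Tlr4 had 137 and 125 CPM in SWNT/CpG libraries and 73.3 and 121 CPM in untreated libraries, a change of 0.43 ± 0.18 (adjusted p = 0.132). Without untreated replicate 1 it was 0.11 (adjusted p = 0.218), and without replicate 2 it was 0.83 and called. Tlr7 had 162 and 169 CPM in SWNT/CpG libraries and 127 and 196 CPM in untreated libraries, a change of 0.03 ± 0.17 (adjusted p = 0.908). Without untreated replicate 1 it was -0.25 and called (adjusted p = 0.0119), and without replicate 2 it was 0.38 and called (adjusted p = 0.000493), so its direction turned on that choice. Myd88 had 81.7 and 88.8 CPM in SWNT/CpG libraries and 115 and 85.2 CPM in untreated libraries, a change of -0.23 ± 0.13 (adjusted p = 0.23). Without replicate 1 it was 0.01 (adjusted p = 0.971), and without replicate 2 it was -0.43 and called. No direction can be given for Tlr7 or Myd88 in RAW-Blue cells. The Tlr4 value with SWNT/CpG was above 0 with either untreated library or both, but with CpG it was 0.16 with both, -0.15 without replicate 1 and 0.57 without replicate 2. Unc93b1 had 290.5 and 269 CPM in SWNT/CpG libraries and 291 and 281 CPM in untreated ones (-0.03, adjusted p = 0.766), and Tlr6 had 15.6 and 15.3 CPM in SWNT/CpG libraries and 13.98 and 14.4 CPM in untreated ones (0.12, adjusted p = 0.389). Without untreated replicate 1 these SWNT/CpG values were -0.0049 for Unc93b1 and 0.10 for Tlr6. Unc93b1 had 251.9 and 255.5 CPM in CpG+SWNT/LP libraries and 254 and 256.2 CPM in SWNT/LP libraries, all below both untreated ones. Its change was -0.17 with CpG+SWNT/LP (adjusted p = 0.109) and -0.16 with SWNT/LP (adjusted p = 0.365). Those values were -0.15 and -0.14 without untreated replicate 1, and -0.20 and -0.19 without replicate 2.

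Between RAW-Blue treatments Tlr2 was the 1 member called in SWNT/CpG against CpG, where 0.842% of genes were called. In CpG+SWNT/LP against CpG, with 0.13% called and 0.00869% lower, Tlr2 fell by 0.43 on the log2 scale (-0.43 ± 0.06, adjusted p = 0.0486). It was the 1 gene of the table called lower there, and the call was lost without any 1 of the 4 libraries (0.35 to 0.543). SWNT/CpG against CpG+SWNT/LP, with 0.825% called, changed no member by edgeR or DESeq2, and the lowest unadjusted p was 0.0715. In CpG+SWNT/LP against SWNT/LP, added later with 4.82% called, Tlr9 was higher and Tlr2 lower (-0.43 ± 0.06, adjusted p = 0.00547). That Tlr2 call was also lost without any 1 of the 4 libraries (0.0574 to 0.0907).

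**Figure D4:**
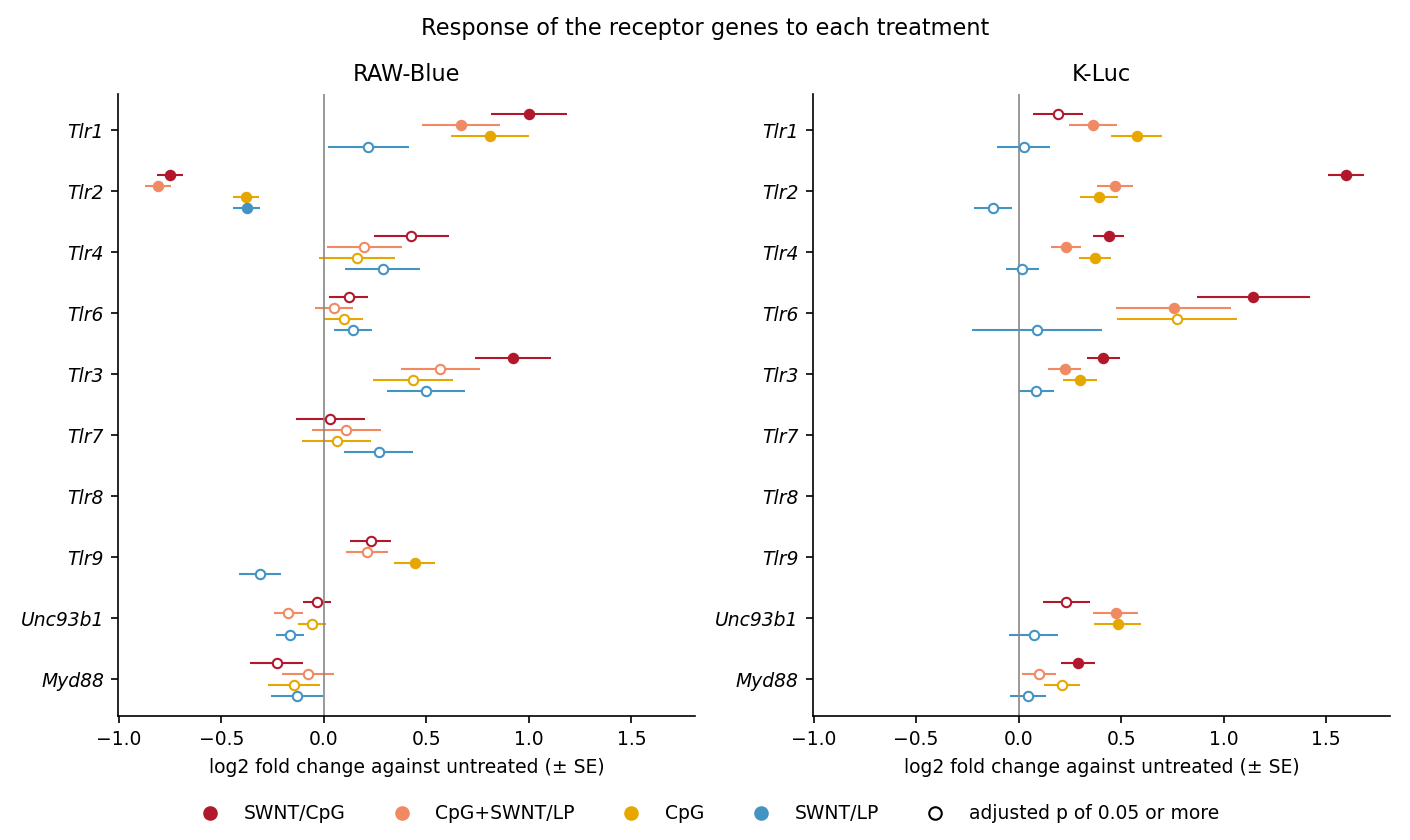
Log2 fold change ± SE against untreated for each tested member and treatment, RAW-Blue cells in the left panel and K-Luc cells in the right panel, with filled points where the adjusted p is under 0.05. Tlr2 lies at -0.75 with SWNT/CpG in RAW-Blue cells and at 1.59 in K-Luc cells, and no SWNT/LP point of K-Luc cells is filled.

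Beside Tlr2, 4 members differed between the lines in their SWNT/CpG response, where 25.4% of genes were called. The RAW-Blue response minus the K-Luc response was 0.81 ± 0.21 for Tlr1 (adjusted p = 0.00686), 0.51 ± 0.18 for Tlr3 (adjusted p = 0.0441), -1.02 ± 0.28 for Tlr6 (adjusted p = 0.00785) and -0.52 ± 0.16 for Myd88 (adjusted p = 0.0166). Without RAW-Blue untreated replicate 1 the Myd88 difference was -0.26 (adjusted p = 0.116), that of Tlr3 was no longer called (0.44, adjusted p = 0.132), and those of Tlr1 (0.68) and Tlr6 (-1.02) were. Tlr4 was then called as well (-0.31, adjusted p = 0.0367). The 5 members called in all became 2 on leaving out either untreated K-Luc library and 3 on leaving out RAW-Blue SWNT/CpG replicate 1. For the CpG response, with 21.9% of genes called, Unc93b1 differed by -0.56 ± 0.12 (adjusted p = 0.00151), lost without K-Luc untreated replicate 2 (adjusted p = 0.0956) and kept without RAW-Blue untreated replicate 1 (-0.51), where Tlr4 was called too (-0.51, adjusted p = 0.00139).

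The pathway around the receptors was read from gene lists chosen with earlier results of these data known. Cytokines and enzymes that Toll-like receptors induce rose in RAW-Blue cells, and none of those tested rose in K-Luc cells. Of the 12 listed genes 8 were tested in RAW-Blue cells, and 7 of them, all but Il1b, reached the level of the filter in both untreated libraries. Those 7 were higher with SWNT/CpG, with CpG+SWNT/LP and with CpG, also without untreated replicate 1. Over all genes 12.8%, 10.1% and 5.18% were called higher in these comparisons. The median log2 fold change of the 7 was 2.22 with SWNT/CpG, 2.40 with CpG+SWNT/LP and 1.62 with CpG, or 2.26, 2.51 and 1.72 without untreated replicate 1, while the median over all tested genes was within 0.01 of 0 in each. Tnf, an inflammatory cytokine, averaged 593.3 ± 52.5 CPM with SWNT/CpG, 474.5 ± 4.44 with CpG, 246.9 ± 14.9 with SWNT/LP and 127.5 ± 4.75 untreated (SD, n = 2 each). Its change was 2.22 ± 0.08 with SWNT/CpG and 0.95 ± 0.08 with SWNT/LP. Nos2, which makes nitric oxide, averaged 151 ± 9.44 CPM with SWNT/CpG and 3.83 ± 0.169 untreated (5.29 ± 0.19, adjusted p = 7.56e-07). Cxcl2, a neutrophil chemokine, averaged 378 ± 105 CPM with SWNT/CpG and 14.3 ± 3.37 untreated, and Il1rn, the interleukin-1 receptor antagonist, rose by 1.81 ± 0.10. Il1b had 14 to 22 counts in SWNT/CpG libraries and 1 in each untreated one, at least 5.88-fold higher at a floor of 3 counts per library. It passed the filter through the treated libraries, so its call is no support. The SWNT/CpG values without untreated replicate 1 were 2.26 for Tnf, 5.25 for Nos2, 4.50 for Cxcl2 and 1.87 for Il1rn, all called. SWNT/LP raised 6 of the 7, where 0.434% of all genes were called higher, 4 without untreated replicate 1, and 3 or 2 on leaving out SWNT/LP replicate 1 or 2. In K-Luc cells Tnf had 0 to 1 counts, Il1b 0, Nos2 0 to 2 and Cxcl2 0 to 7 in any library. Of the 5 listed genes tested there, none was called higher in any treatment by edgeR or DESeq2, and 1 had an unadjusted p under 0.05 with SWNT/CpG. That gene, Ptgs2, the inducible prostaglandin synthase, was lower with SWNT/CpG (-0.62 ± 0.15, adjusted p = 0.00466) and with CpG+SWNT/LP (-0.80 ± 0.14, adjusted p = 0.00157), and both calls were lost without untreated replicate 2.

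**Figure D5:**
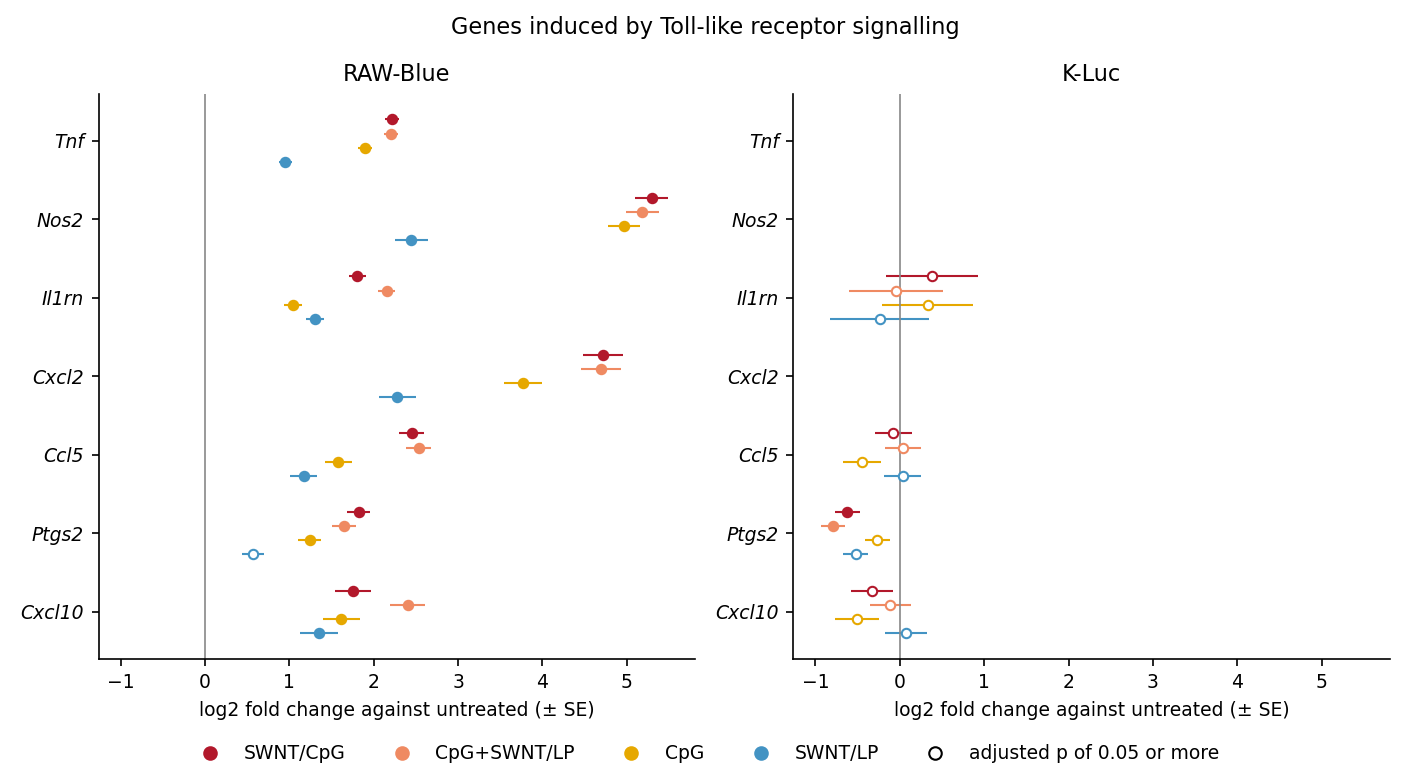
Log2 fold change ± SE against untreated for listed genes that Toll-like receptors induce, by treatment, RAW-Blue cells in the left panel and K-Luc cells in the right panel, with filled points where the adjusted p is under 0.05 and no point for genes below the filter. In RAW-Blue cells Nos2 lies at 5.29 with SWNT/CpG, and the SWNT/LP points lie below those of the 3 treatments that hold oligonucleotide for 6 of the 7 genes, while that of Il1rn lies above its CpG point.

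Of 12 genes that restrain Toll-like receptor signalling, 6 were higher and 1 lower in RAW-Blue cells with SWNT/CpG, where 12.8% of all genes were called higher and 10.4% lower. The same numbers were found with CpG and with CpG+SWNT/LP. Without untreated replicate 1, 7 were higher and 1 lower with SWNT/CpG and with CpG+SWNT/LP, and 6 and 1 with CpG. Of the 12, 11 reached the level of the filter in both untreated libraries, and all calls with SWNT/CpG were among them. The median log2 fold change of these 11 was 0.50 with SWNT/CpG, or 0.58 and 0.55 without untreated replicate 1 or 2. Zc3h12a, an RNase that degrades cytokine transcripts, averaged 68.7 ± 3.85 CPM with SWNT/CpG and 17.9 ± 1.03 untreated (1.94 ± 0.09, adjusted p = 2.9e-06). Irak3, a kinase-family inhibitor of the pathway, averaged 107.5 ± 8.44 CPM with SWNT/CpG and 28.0 ± 0.34 untreated, and Nfkbiz, an atypical regulator of NF-kB, rose by 2.58 ± 0.16. Nfkbie, an inhibitor that holds NF-kB in the cytoplasm, was lower, at 7.86 ± 1.07 CPM with SWNT/CpG and 16.5 ± 1.27 untreated. The values without untreated replicate 1 were 1.88 for Zc3h12a, 1.93 for Irak3, 2.41 for Nfkbiz and -1.15 for Nfkbie, all called. In K-Luc cells SWNT/CpG raised 5 of 11 and lowered Socs1, with a median of 0.25. These 6 calls are 54.5% of the list, in a comparison where 43.1% of all genes were called, and without untreated replicate 2 it raised 3 and lowered none. The rises included Zc3h12a (0.79 ± 0.08, adjusted p = 1.58e-06), Tnfaip3, a ubiquitin-editing inhibitor of NF-kB (0.82 ± 0.12), and Nfkbie, which here had 25.4 ± 1.84 CPM with SWNT/CpG and 13.98 ± 0.374 untreated (0.84 ± 0.10, adjusted p = 6.56e-06). With CpG none of the 11 was called in K-Luc cells by edgeR or DESeq2, and 1 had an unadjusted p under 0.05. In RAW-Blue cells SWNT/LP raised 2 of the 12, Dusp1, a phosphatase of MAP kinases (0.96), and Zc3h12a (0.61), and both calls were lost without either SWNT/LP library and kept without untreated replicate 1.

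The remaining lists are given beside the 23.2% of all genes called with SWNT/CpG in RAW-Blue cells and the 43.1% in K-Luc cells. The 18 adaptors and kinases had a median of 0.05 with SWNT/CpG in RAW-Blue cells, or -0.02 and 0.06 without untreated replicate 1 or 2. SWNT/CpG raised 3 of these 18 and lowered 2, and these calls changed without either untreated library. It raised 6 of 17 tested and lowered none in K-Luc cells (median 0.04), 35.3% of the list, against 27.8% called in RAW-Blue, so neither share is far from that over all genes. Leaving out an untreated K-Luc library gave 3 calls (replicate 1) or 2 (replicate 2). Ikbke, a kinase of the interferon branch, rose in both, by 1.36 ± 0.13 in RAW-Blue (1.27 without untreated replicate 1) and 0.56 ± 0.08 in K-Luc. Of 13 genes of endosomal receptor processing, SWNT/CpG raised 1 and lowered 3 in RAW-Blue cells (30.8%), or 3 and 5 without untreated replicate 1. It raised 6 of 10 tested and lowered none in K-Luc cells (60%), 3 without untreated replicate 2. Lgmn, a protease reported to cleave Tlr9, averaged 425 ± 12.7 CPM with SWNT/CpG and 799 ± 80.8 untreated in RAW-Blue (-0.91 ± 0.08, adjusted p = 5.32e-05), and 155 ± 8.71 CPM with SWNT/CpG and 113 ± 7.06 untreated in K-Luc (0.48 ± 0.08, adjusted p = 0.000313). Ctsl, a lysosomal cathepsin, rose in both lines, by 0.79 ± 0.07 in RAW-Blue and 0.27 in K-Luc. The RAW-Blue values without untreated replicate 1 were -0.80 for Lgmn and 0.87 for Ctsl, both called. Of the cytosolic nucleic acid sensors, 9 reached the level of the filter in both untreated RAW-Blue libraries. SWNT/CpG raised 3 of these 9 and lowered 1. Zbp1 was higher too but passed the filter through treated libraries, so its call is no support. The rises with SWNT/CpG included Ifih1, which senses double-stranded RNA (1.83 ± 0.18, or 1.59 without untreated replicate 1). In K-Luc cells it raised 5 of 10 and lowered 2 (70%), 1 and 1 without untreated replicate 2. Of 5 interferon regulatory factors, SWNT/CpG raised Irf7 and Irf8 and lowered Irf5 in RAW-Blue cells, and without untreated replicate 1 the Irf7 call was lost (2.25, adjusted p = 0.0584). Irf7, which drives interferon genes downstream of Tlr7 and Tlr9, averaged 41.5 ± 4.46 CPM with SWNT/CpG, 16.8 ± 7.42 with CpG+SWNT/LP, 17.8 ± 7.80 with CpG, 21.2 ± 5.05 with SWNT/LP and 8.13 ± 0.853 untreated. None of the 4 tested in K-Luc cells was called by edgeR or DESeq2, and 1 had an unadjusted p under 0.05. Of the co-receptors, SWNT/CpG raised Ly96 and Cd14 and lowered Ly86 among 4 tested in RAW-Blue cells, also without untreated replicate 1, and raised 1 of 3 in K-Luc cells, none without either untreated library. Of the 5 other receptors 1 was tested in K-Luc and 2 in RAW-Blue cells, and none was called with SWNT/CpG by edgeR or DESeq2 or had an unadjusted p under 0.05 there.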

How the data were processed

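The authors deposited raw read counts per gene and a second table in RPKM. Per the submitters' processing notes they used TopHat2 2.0.14, HTSeq 0.6.0 and build mm9. The labels' protocols name poly(A) RNA and a stranded kit, while the sources used here do not give the annotation or the strand setting. Library totals were 13.3 to 24.1 M counts, and intervals and floors cover counting error only.

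Tests on the deposited counts used edgeR 4.0.16 (R 4.3.3) with TMM scaling, filterByExpr by group (minimum count 10, minimum total 15), robust quasi-likelihood F test, two-sided, Benjamini-Hochberg over all tested genes. K-Luc was fitted with group and run (14 libraries, 12420 genes), RAW-Blue with group (10 libraries, 11514 genes) and both lines together with group and run (24 libraries, 13350 genes). The run term was called for 2155 K-Luc genes (17.4%), among the members for Tlr2 (-0.29) and Tlr3 (0.23, run 1 minus run 2). Each standard error was taken as the log2 fold change over the root of F. The script was tested on simulated counts. Replicate libraries were compared with each other, and no 2 agreed within sampling noise. In K-Luc cells all 26 same-numbered pairs of libraries deviated together (correlation 0.206 to 0.686). The main tests held no term for this pairing, and replicate number entered as a block among the alternatives only.

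The members and lists were chosen with earlier results of these data known. The naming rule covered all 10 members and, of each list, up to 4 called genes with the smallest adjusted p; members not called between treatments are given as counts. Other named list genes are values beside them. The alternatives tried were DESeq2 1.42.0, edgeR with RLE size factors, no filter, a replicate block, no run term, run 2 alone, only the compared groups, and each library left out. CpG+SWNT/LP against SWNT/LP was added after the data were seen. Sequences and motif counts come from RefSeq windows of GRCm38.p6.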

Additional observations from a re-analysis of the deposited data

Results flagged for a closer look

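A total of 7 responses differed between the lines by a direct test of the difference (edgeR's quasi-likelihood test, RAW-Blue response minus K-Luc response, log2 scale, n = 2 RAW-Blue libraries per group, 3 treated and 2 untreated K-Luc libraries). With SWNT/CpG the difference was -2.35 for Tlr2, -1.02 for Tlr6 and -0.52 for Myd88, and 0.81 for Tlr1 and 0.51 for Tlr3. With CpG it was -0.79 for Tlr2 and -0.56 for Unc93b1. For Tlr2 every treated RAW-Blue library was below, and every SWNT/CpG or CpG library of K-Luc above, both untreated libraries of its line. For Tlr6 the K-Luc libraries held 0.873 to 2.74 CPM, near the filter on low counts. The lines also differ in treatment time and plating, which cannot be told apart from line.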

How the results depend on the processing

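Depth limits Tlr7 and Tlr9 in K-Luc and Tlr8 in both lines, and groups of 2 or 3 libraries limit the rest. Of the member values recomputed, 1535 kept their side of the threshold, 1484 of them with the same sign and 51 with another sign but called in neither fit. A further 136 lost a call, 34 gained one and 3 turned direction with a call: Tlr7 in RAW-Blue (-0.25 for SWNT/CpG and -0.22 for CpG without untreated replicate 1, 0.38 and 0.41 without replicate 2) and Tlr4 in the SWNT/CpG difference between the lines (0.34 without RAW-Blue untreated replicate 2, -0.31 without replicate 1). The causes were not tested.

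The number of members called against untreated in K-Luc was 5 for SWNT/CpG, and 3 in run 2 alone. For CpG+SWNT/LP it was 6, but 3 with DESeq2, 3 with no filter, 2 with no run term and 2 in run 2 alone. For CpG it was 5, and 3 with only the compared groups. Leaving out 1 library gave 4 to 5, 0 to 5 and 1 to 6. In RAW-Blue it was 3 for SWNT/CpG, 2 for CpG+SWNT/LP (1 with DESeq2, 1 with only the compared groups), 3 for CpG (0 with only the compared groups) and 1 for SWNT/LP (0 with the replicate block, 0 with only the compared groups). Leaving out 1 library gave 2 to 6, 1 to 7, 0 to 6 and 0 to 6. Between K-Luc treatments it was 2 for SWNT/CpG against CpG (1 with DESeq2, with no run term, in run 2 alone or with only the compared groups). It was 2 for SWNT/CpG against CpG+SWNT/LP (4 with the replicate block or only the compared groups, 1 with no run term or in run 2 alone), 0 for CpG+SWNT/LP against CpG (1 with the block) and 4 for CpG+SWNT/LP against SWNT/LP (2 in run 2 alone or with only the compared groups). Leaving out 1 library gave 1 to 2, 1 to 2, 0 and 2 to 4. Between RAW-Blue treatments it was 1 for SWNT/CpG against CpG (2 with only the compared groups), 1 for CpG+SWNT/LP against CpG (0 with RLE size factors or the block) and 2 for CpG+SWNT/LP against SWNT/LP, each 0 on leaving out any 1 compared library. The difference between lines was called for 5 members with SWNT/CpG (2 in run 2 alone, 2 to 6 without 1 library) and 2 with CpG (1 to 3). The 9 calls between untreated lines became 7 to 9.

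Over all genes, the number called against untreated was 5347 for SWNT/CpG, 4213 for CpG+SWNT/LP, 4498 for CpG and 16 for SWNT/LP in K-Luc, with ranges of 2770 to 6536, 1454 to 5786, 1531 to 5134 and 0 to 61 over the alternatives. In RAW-Blue it was 2673, 2332, 1241 and 55, with ranges of 899 to 5951, 443 to 5500, 125 to 5186 and 1 to 4207. The replicate block changed no other count of members by more than 1.5 times. RAW-Blue replicate numbers did not pair the libraries (4 of 20 same-numbered pairs correlated above 0.1).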
